A study of Papio cynocephalus with 12 samples.

Results

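The transcripts described here belong to 9 genes of the leukocyte actin cytoskeleton, ACTB, ACTG1, TMSB4X, TMSB10, PFN1, CFL1, CORO1A, LCP1 and MSN. Each was chosen as 1 RefSeq accession, NM_001101 for ACTB, NM_001614 for ACTG1, NM_021109 for TMSB4X, NM_021103 for TMSB10, NM_005022 for PFN1, NM_005507 for CFL1, NM_007074 for CORO1A, NM_002298 for LCP1 and NM_002444 for MSN. They are 9 of the 41970 transcript rows that every table holds, each accession has 1 row, and rows of other isoforms of these genes were not used. The rule takes genes by name and uses no threshold on a measured value, and 7 of the 9 had counts.

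The samples were peripheral blood of 12 yellow baboons (Papio cynocephalus), adult males bred in a colony, drawn at baseline before any of them was inoculated, so all 12 form 1 untreated group. The sample labels call the source peripheral blood mononuclear cells, whereas the study's methods describe whole blood in PAXgene tubes depleted of globin transcripts. Markers of cell types were not analysed here, and in bulk blood fewer cells of a type and less RNA per cell cannot be told apart. The reads of each animal were mapped to human references in 6 ways, because the study asked how the choice of mapping method changes what is measured when primate reads are placed on a human reference. Bowtie2 and Stampy, which do not split a read over an intron, were run on the reference transcriptome and again on the reference genome, where they are called Bowtie2-G and Stampy-G. TopHat2 and GSNAP, which do split reads over introns, were run on the genome, TopHat2 after a first pass on annotated transcripts. The 72 columns held 7249470 to 18911340 counts each, and the 6 columns of an animal come from the same reads.

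Actin is a globular protein that polymerises into filaments, and white blood cells rebuild these filaments constantly as they crawl, engulf particles and form contacts with other cells. ACTB and ACTG1 encode the 2 cytoplasmic actins. TMSB4X and TMSB10 encode beta-thymosins, small peptides that bind actin monomers and hold them in reserve, and PFN1 encodes profilin, which delivers monomers to growing filament ends. CFL1 encodes cofilin, which severs ageing filaments, and CORO1A encodes coronin, a regulator of filament turnover in blood cells. LCP1 encodes L-plastin, which bundles filaments in leukocytes, and MSN encodes moesin, which ties filaments to the plasma membrane.

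Of the actins, ACTB was counted in every column and ACTG1 was listed at 0. ACTB alone took 1.53% ± 0.202 (SD, n = 12 animals) of all counts with TopHat2 and 2.27% ± 0.305 (SD, n = 12) with Bowtie2. The 7 members with counts together took 3.73% ± 0.400 (SD, n = 12) with TopHat2, 4.51% ± 0.544 with Bowtie2 and 2.70% ± 0.316 with Stampy-G. ACTG1 and CORO1A had no count in any of the 72 columns, which allows 3 counts and hence 0.159 to 0.414 CPM (counts per 1000000 counts of the column), for counting error only. Gamma-actin and coronin are both known as proteins of white blood cells, and the zeros are those of the rows NM_001614 and NM_007074, as other rows of these genes were not used. These rows were not alone, since 12507 of the 34587 protein-coding (NM) rows, 36.2%, had no count in any column. In the counting mode that the study names, a read whose aligned position falls equally in several annotated transcripts is left unassigned, and the part of this in the zeros was not tested. Most members, among them ACTB, TMSB4X and CFL1, also have processed pseudogenes in the human genome, so that their counts are uncertain by the reads such copies share, a number that was not analysed here.

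ACTB counts depended on whether the program was run on the transcriptome or the genome. With TopHat2 the lowest, median and highest of the 12 animals were 165971, 204162 and 259887 counts. With Bowtie2 they were 254925, 297581.5 and 367104, and with Stampy 265044, 310207.5 and 383836. Every animal with Stampy thus lay above every animal with TopHat2, and the Bowtie2 and TopHat2 ranges overlapped only between 254925 and 259887. On the genome the same programs gave 153984, 194525 and 235887 with Bowtie2-G and 160606, 201627 and 250603 with Stampy-G. GSNAP gave the lowest counts of the 6 tables, 144599, 176503.5 and 217534.

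Animals were compared as pairs with edgeR's quasi-likelihood test, with read pairs after quality control as the library size of both columns, and p-values were adjusted over all transcripts tested (Benjamini-Hochberg). Both columns hold the same reads, so the p-value is small where the difference is nearly equal in every animal, and it does not say that the difference is large. ACTB was 1.48-fold higher with Bowtie2 than with TopHat2 (log2 difference 0.56, SE 0.0137, edgeR adjusted p = 5.73e-14) and 1.54-fold higher with Stampy (0.62, SE 0.0118, edgeR adjusted p = 2.24e-15), in 12 of 12 animals each. Within a program the step from genome to transcriptome was of about the same size per read pair. The log2 differences were 0.66 (SE 0.0117) for Bowtie2 over Bowtie2-G and 0.65 (SE 0.0116) for Stampy over Stampy-G. With TMM the sizes were no longer alike. Those against TopHat2 became 0.53 for Bowtie2 and 0.16 for Stampy, and those within a program 0.33 and 0.37. Per read pair the 4 genome tables lay close together, although with TMM GSNAP was 0.548 above TopHat2 on the log2 scale. Stampy-G differed from TopHat2 by only -0.03 on the log2 scale (SE 0.00701, edgeR adjusted p = 0.00413), with 2 of 12 animals the other way. Per read pair the count of ACTB fell by 0.09 with Bowtie2-G and by 0.20 with GSNAP, both reversed when columns were scaled to their own totals or by TMM (trimmed mean of M values). The median total of a column was 11143488.5 counts with Bowtie2-G and 8176131 with GSNAP, below the 13469888 of TopHat2.

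**Figure D1:**
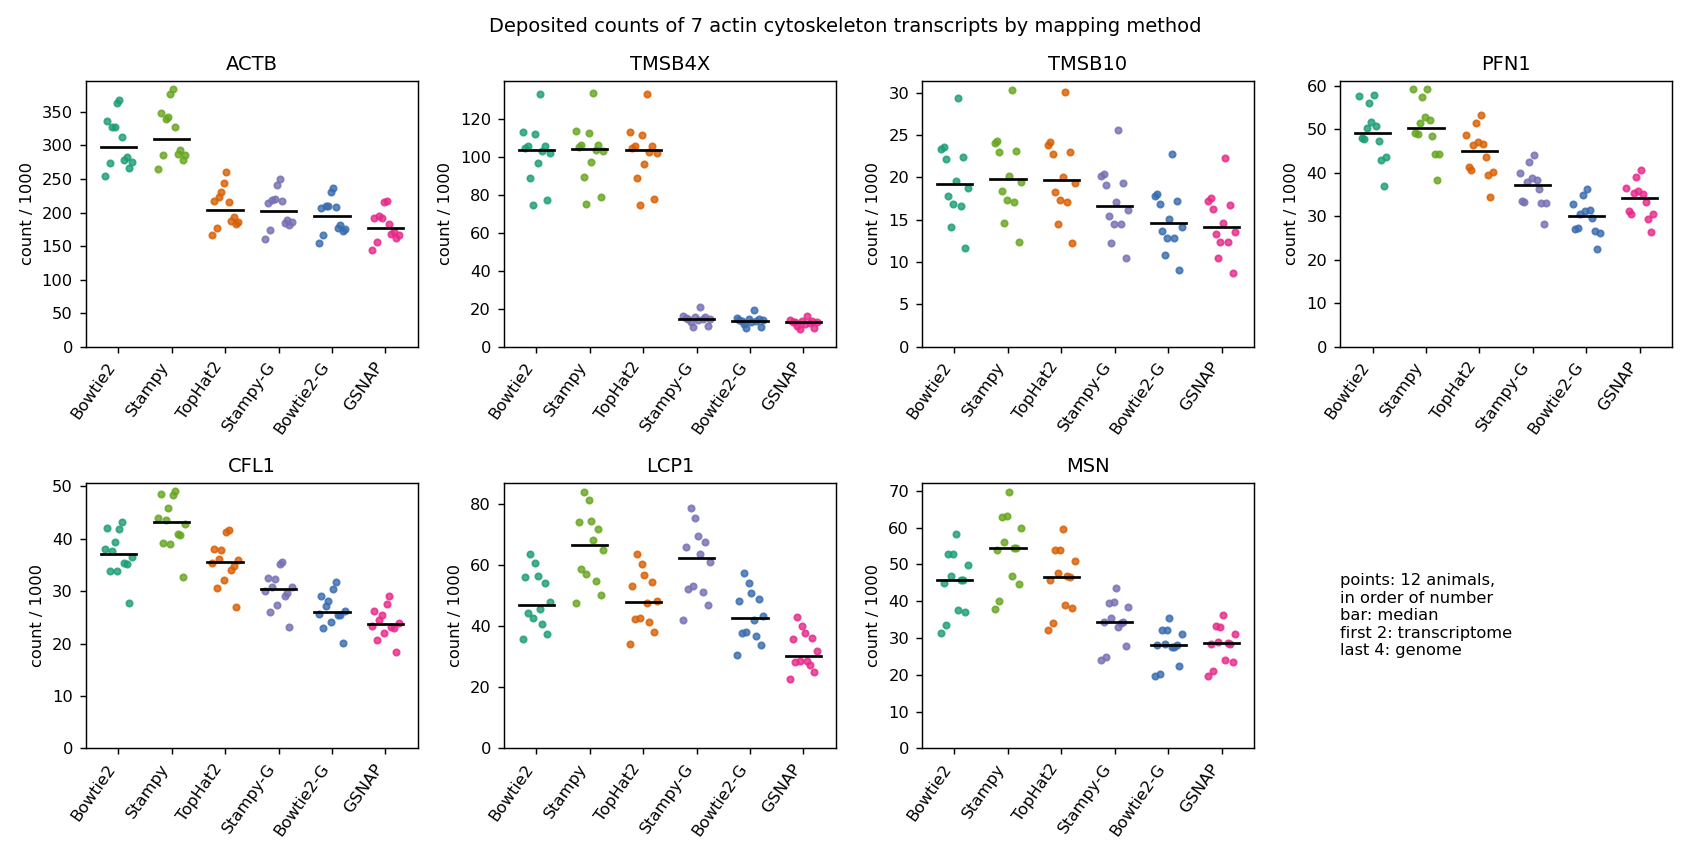
Deposited counts (divided by 1000, linear axis from 0) of the 7 members with counts, 1 panel per gene, in the 6 mapping methods. Each point is 1 of the 12 animals and the bar is the median. TMSB4X falls into 2 groups that do not overlap, and ACTB is highest with the 2 transcriptome methods.

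TMSB4X showed the widest spread between methods of the 7 members, per read pair and by CPM after TMM, with 3 tables far below the others. TopHat2 gave 74355, 103601 and 132827 counts in the lowest, median and highest animal, Bowtie2 gave 74404, 103688.5 and 132828, and Stampy gave 74897, 104226 and 133580. Stampy-G gave 10440, 14697 and 21032, Bowtie2-G gave 9788, 13770.5 and 19527, and GSNAP gave 9152, 12906 and 16410. The highest animal of the 3 low tables was below the lowest animal of the 3 high tables. Relative to TopHat2 the counts of TMSB4X were 6.93-fold lower with Stampy-G (log2 difference -2.79, SE 0.0159, edgeR adjusted p = 3.14e-20), 7.41-fold lower with Bowtie2-G (-2.89, SE 0.0150, edgeR adjusted p = 1.59e-21) and 8.09-fold lower with GSNAP (-3.02, SE 0.00815, edgeR adjusted p = 9.27e-26). With TMM these log2 differences were -2.91, -2.59 and -2.27, in the same direction. Drops of this size were found in other transcripts too, as 881 of 11752 tested transcripts were lower still with Stampy-G, 1055 of 11164 with Bowtie2-G and 1287 of 10754 with GSNAP.

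TopHat2 and the transcriptome methods gave nearly the same TMSB4X count. TopHat2 and Bowtie2 differed by 0.00 on the log2 scale (95% interval -0.007 to 0.006, edgeR adjusted p = 0.949), and with TMM Bowtie2 was lower by 0.040 (edgeR adjusted p = 0.000146). Stampy was 1.01-fold above TopHat2, a difference that passed the test (edgeR adjusted p = 0.0295), was repeated in 12 of 12 animals and reversed with TMM and with total counts. TMSB10, the other beta-thymosin, did not show the drop of TMSB4X. Its counts were 12217, 19669 and 30122 (lowest, median, highest animal) with TopHat2 and 10492, 16592 and 25578 with Stampy-G, groups that overlapped over most of their range. The 12 paired counts of TMSB10 were nevertheless all lower with Stampy-G, by 1.18-fold (log2 difference -0.24, SE 0.00313, edgeR adjusted p = 8.36e-17). Per read pair TMSB10 varied the least between methods, with 1.39-fold between Stampy (highest) and GSNAP (lowest), where TMSB4X spanned 8.14-fold between the same 2 tables. By mean CPM after TMM the spans were 1.54-fold for TMSB10 and 7.53-fold for TMSB4X, and that of LCP1 was the narrowest of the 7, at 1.14-fold.

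PFN1 and CFL1, the profilin and cofilin genes, were counted most per read pair with Stampy, followed by Bowtie2, TopHat2 and Stampy-G, although by CPM after TMM both were highest with GSNAP. PFN1 had 34511, 44982 and 53328 counts with TopHat2, 38384, 50253 and 59208 with Stampy and 22516, 30058 and 36151 with Bowtie2-G. The ranges of Bowtie2-G and TopHat2 overlapped only between 34511 and 36151. With Bowtie2-G, PFN1 had 66.7% of its TopHat2 count (log2 difference -0.58, SE 0.00640, edgeR adjusted p = 3.21e-18), and it was the 1 member called lower with Bowtie2-G than with GSNAP (log2 difference -0.18, SE 0.00769, edgeR adjusted p = 1.66e-12). CFL1 had 27009, 35599 and 41651 counts with TopHat2, 32592, 43088 and 49095 with Stampy and 18310, 23627.5 and 28967 with GSNAP. CFL1 was 1.21-fold higher with Stampy than with TopHat2 (log2 difference 0.28, SE 0.0119, edgeR adjusted p = 1.34e-11) and 1.48-fold lower with GSNAP (-0.56, SE 0.00724, edgeR adjusted p = 8.48e-19). Both directions reversed with TMM. With total counts that of GSNAP reversed, while the difference with Stampy, -0.007, did not pass the test (edgeR adjusted p = 0.533).

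LCP1, the L-plastin gene, was the 1 member with counts that was higher with Stampy-G than with TopHat2. It had 33971, 47920 and 63571 counts with TopHat2, 41857, 62236 and 78484 with Stampy-G and 22543, 30173 and 42912 with GSNAP. The ranges overlapped, but each of the 12 animals had more LCP1 counts with Stampy-G, by 1.25-fold (log2 difference 0.32, SE 0.00945, edgeR adjusted p = 4.62e-13). Bowtie2 and TopHat2 did not differ detectably for LCP1 per read pair (log2 difference 0.01, 95% interval -0.016 to 0.029, edgeR adjusted p = 0.653), and with TMM Bowtie2 was lower (-0.033, edgeR adjusted p = 0.00281). GSNAP gave 1.52-fold less LCP1 than TopHat2 (log2 difference -0.60, SE 0.0122, edgeR adjusted p = 1.75e-16), a direction that reversed with TMM and with total counts.

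MSN, the moesin gene, had lower counts with the other 3 genome methods than with TopHat2, with the call against GSNAP reversed by TMM. Its counts were 32067, 46602.5 and 59529 with TopHat2, 23980, 34319.5 and 43628 with Stampy-G, 19688, 28143 and 35449 with Bowtie2-G and 19693, 28580.5 and 36342 with GSNAP. The Bowtie2-G and GSNAP columns covered nearly the same range, both with medians below the lowest TopHat2 value. Relative to TopHat2 the log2 difference of MSN was -0.42 (SE 0.0164, edgeR adjusted p = 8.22e-12) with Stampy-G and -0.72 (SE 0.0189, edgeR adjusted p = 4.62e-14) with Bowtie2-G, both kept with TMM and with total counts. With GSNAP it was -0.70 (SE 0.00452, edgeR adjusted p = 7.10e-22), which turned to 0.040 with TMM and 0.014 with total counts. That 0.014 was the smallest positive difference of a member with GSNAP under total counts, where not all of them passed the test.

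The order of the 6 methods by mean count per read pair was therefore not the same for each gene. Stampy came first for all 7 members in that order, but for 0 of 7 by mean CPM after TMM, where GSNAP came first for TMSB10, PFN1, CFL1 and MSN. GSNAP came last for ACTB, TMSB4X, TMSB10, CFL1 and LCP1, and Bowtie2-G came last for PFN1 and MSN. TopHat2 came directly after Stampy for TMSB4X, TMSB10 and MSN, after both transcriptome methods for ACTB, PFN1 and CFL1, and after both and Stampy-G for LCP1. Of the neighbours in these orders, 3 did not differ beyond their spread, TopHat2 and Bowtie2 for TMSB4X, Bowtie2 and TopHat2 for LCP1, and GSNAP and Bowtie2-G for MSN (log2 difference 0.013, edgeR adjusted p = 0.467). With TMM each of these 3 pairs passed the threshold. Per read pair the last of them rested on animal 8, since without it MSN was lower with Bowtie2-G than with GSNAP by 0.032 on the log2 scale (edgeR adjusted p = 0.00024). From first to last the spread was 1.76-fold for ACTB, 1.70-fold for PFN1, 1.79-fold for CFL1, 2.04-fold for LCP1 and 1.93-fold for MSN.

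The calls of the members are read against those of all transcripts in the same pair of tables. With GSNAP 7 of 7 tested members were lower than with TopHat2, but so were 93.2% of all transcripts tested (3.25% higher), and with TMM the split was 43.0% higher and 40.5% lower. The members' median log2 difference there was -0.56 and that of all transcripts -0.72, and 6 of 7 members lay above the median of all. With Bowtie2-G 7 of 7 were lower than with TopHat2, beside 70.6% of all transcripts lower and 8.19% higher (33.2% and 47.9% with TMM), and the medians were -0.43 and -0.20. ACTB and LCP1 turned higher there under TMM and total counts, and the other 5 members stayed lower.

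With Stampy-G 6 of 7 members were lower and 1 was higher than with TopHat2, while 26.4% of all transcripts were lower and 56.1% higher (36.3% and 41.9% with TMM). The members' median was -0.24 and that of all transcripts 0.14, and LCP1 was the 1 member above the median of all. These 7 calls kept their direction with read pairs, TMM and total counts alike. With Stampy 7 of 7 were higher than with TopHat2, beside 81% of all transcripts (9.15% lower; 41.1% higher and 45.0% lower with TMM), and ACTB alone stayed higher under all 3 scalings. With Bowtie2, 3 members (ACTB, PFN1 and CFL1) were higher and 2 (TMSB10 and MSN) lower than with TopHat2 under all 3 scalings. Of all transcripts 35.4% were higher and 28.5% lower (29.4% and 37.2% with TMM). Some of these member differences were small, with log2 values of -0.038 for TMSB10, -0.032 for MSN and 0.065 for CFL1 (0.025 with TMM).

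The reference made the same direction of difference for all 7 members when the program was held fixed. Bowtie2 counts were higher on the transcriptome than on the genome for 7 of 7 members, beside 70.1% of all transcripts higher and 7.31% lower (34.7% and 50.0% with TMM), with a median of 0.66 for the members and 0.22 for all. LCP1 had the smallest of these differences (log2 0.17, SE 0.0101) and turned lower with TMM and total counts, and the other 6 stayed higher. Stampy counts were higher on the transcriptome for 7 of 7 members, beside 64.6% of all transcripts higher and 9.13% lower (37.7% and 46.7% with TMM), with medians of 0.51 and 0.20. Here LCP1 turned lower with both scalings, TMSB10 with TMM, and the other 5 stayed higher.

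The other pairs of tables gave 7 of 7 members in 1 direction wherever Stampy was one of the methods. With Stampy 7 of 7 were higher than with Bowtie2, beside 82.5% of all transcripts (3.39% lower), than with Bowtie2-G, beside 92.9% (3.94% lower), and than with GSNAP, beside 95.3% (3.01% lower). With TMM these splits of all transcripts were 37.2% and 43.4%, 44.2% and 44.6%, and 50.5% and 40.1% (higher and lower with Stampy), and the members called higher numbered 0, 2 and 1. LCP1 again differed from the others in the pair of Bowtie2 and Stampy-G, where it was lower with Bowtie2 (log2 difference -0.31, edgeR adjusted p = 3.81e-10) and the other 6 were higher, beside 29.7% of all transcripts higher and 54% lower. That split of the members, 6 higher and 1 lower, was the same with TMM and with total counts. Of all transcripts 36.4% were higher and 44.5% lower with TMM, and 39.2% and 40.8% with total counts. Bowtie2 gave more counts than GSNAP for 7 of 7 members, beside 92.1% of all transcripts (4.37% lower), and with TMM for 1 of 7, beside 42.4% (44.3% lower).

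Among the unspliced genome tables and GSNAP, TMSB4X counts lay close together. Stampy-G was above Bowtie2-G by 0.10 on the log2 scale for TMSB4X (edgeR adjusted p = 7.54e-12) and by 0.48 for LCP1 (edgeR adjusted p = 6.36e-16), with 7 of 7 members higher beside 89.6% of all transcripts (1.88% lower), and with 0 of 7 higher under TMM (34.5% of all higher, 39.1% lower). Stampy-G was above GSNAP for 7 of 7, beside 94.8% of all transcripts (2% lower), and with TMM for 1 of 7 (43.7% of all higher, 40.9% lower). Bowtie2-G was above GSNAP for 5 of 7 and below for 1 (PFN1), beside 85.2% of all transcripts higher and 4.95% lower, and with TMM 1 was higher and 6 lower (36.5% and 35.3% of all).

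**Figure D2:**
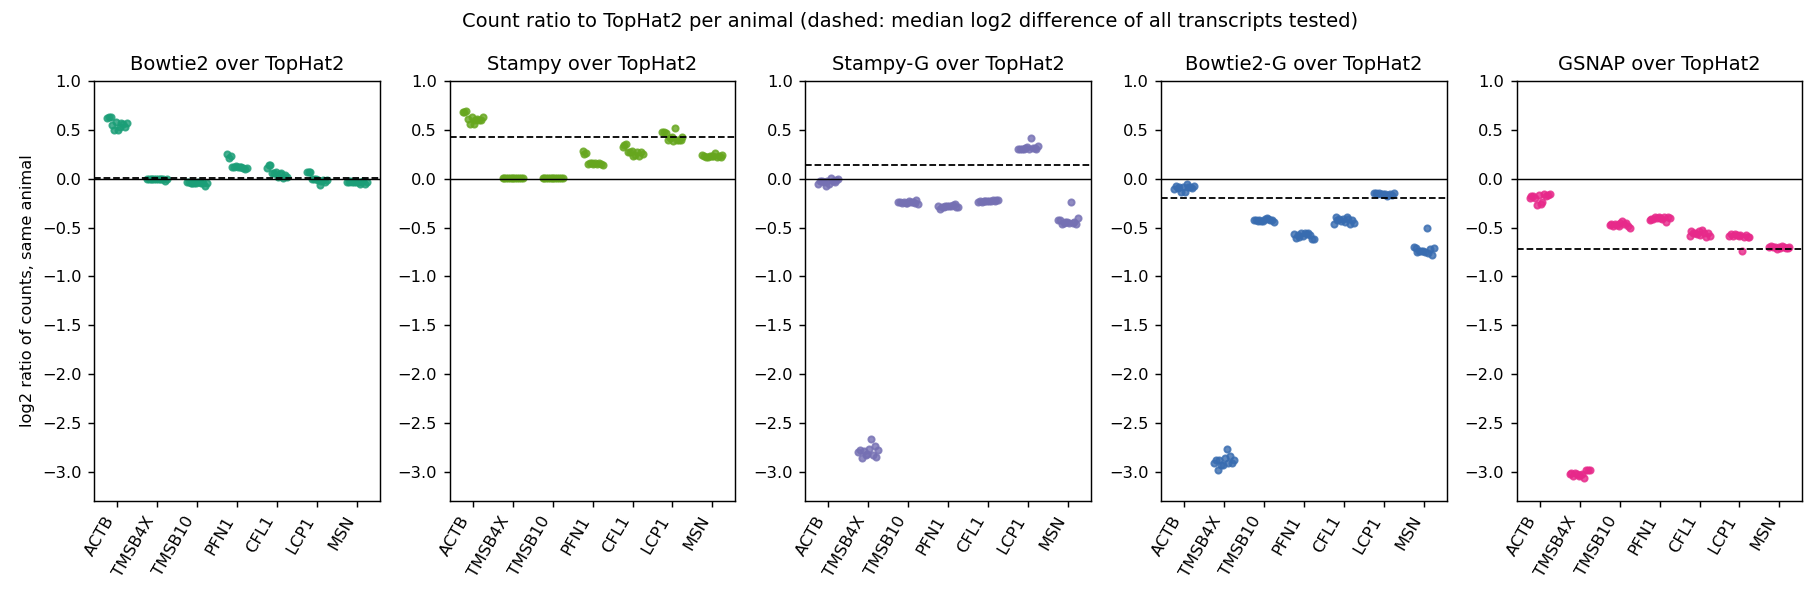
Log2 ratio of counts to TopHat2 in the same animal (y axis, shared by the panels) for 7 members, 1 panel per method. Points are the 12 animals, the solid line is equal counts and the dashed line is the median of all transcripts tested. TMSB4X lies between -3.06 and -2.66 in the 3 right panels. Ratios are of raw counts. With TMM the sign changes for GSNAP other than TMSB4X and for Stampy other than ACTB. It also changes for ACTB and LCP1 with Bowtie2-G and for LCP1 with Bowtie2.

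Ratios between 2 methods were very even over the animals, with a few exceptions that concerned the same animals. The log2 ratio of Stampy to TopHat2 for TMSB4X was 0.01 in all 12 animals, and that of Stampy-G to TopHat2 for CFL1 ran from -0.24 to -0.22. Animal 8 stood apart for MSN with the unspliced genome methods, where Bowtie2-G over TopHat2 was -0.50 in animal 8 and -0.78 to -0.70 in the other 11, and Stampy-G over TopHat2 was -0.24 against -0.46 to -0.40. With GSNAP its MSN ratio, -0.69, lay within the range of the others. For LCP1 the ratio of GSNAP to TopHat2 was -0.74 in animal 8 and -0.60 to -0.57 in the other 11, and that of Stampy-G was 0.42 against 0.30 to 0.34. TMSB4X was lowered less in animal 8, with -2.66 against -2.86 to -2.74 for Stampy-G, but not with GSNAP, where its -3.02 lay within -3.06 to -2.98. PFN1 and CFL1 ratios of Stampy-G to TopHat2 in animal 8 lay within the range of the others. The departure was not limited to members, since of 1951 transcripts with a mean of at least 1000 counts, 9.07% departed by over 0.15 on the log2 scale in animal 8 for Stampy-G over TopHat2 and 0.564% to 1.79% did in the other 11. Without animal 8 the calls of the members against TopHat2 did not change in the edgeR refit.

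**Figure D3:**
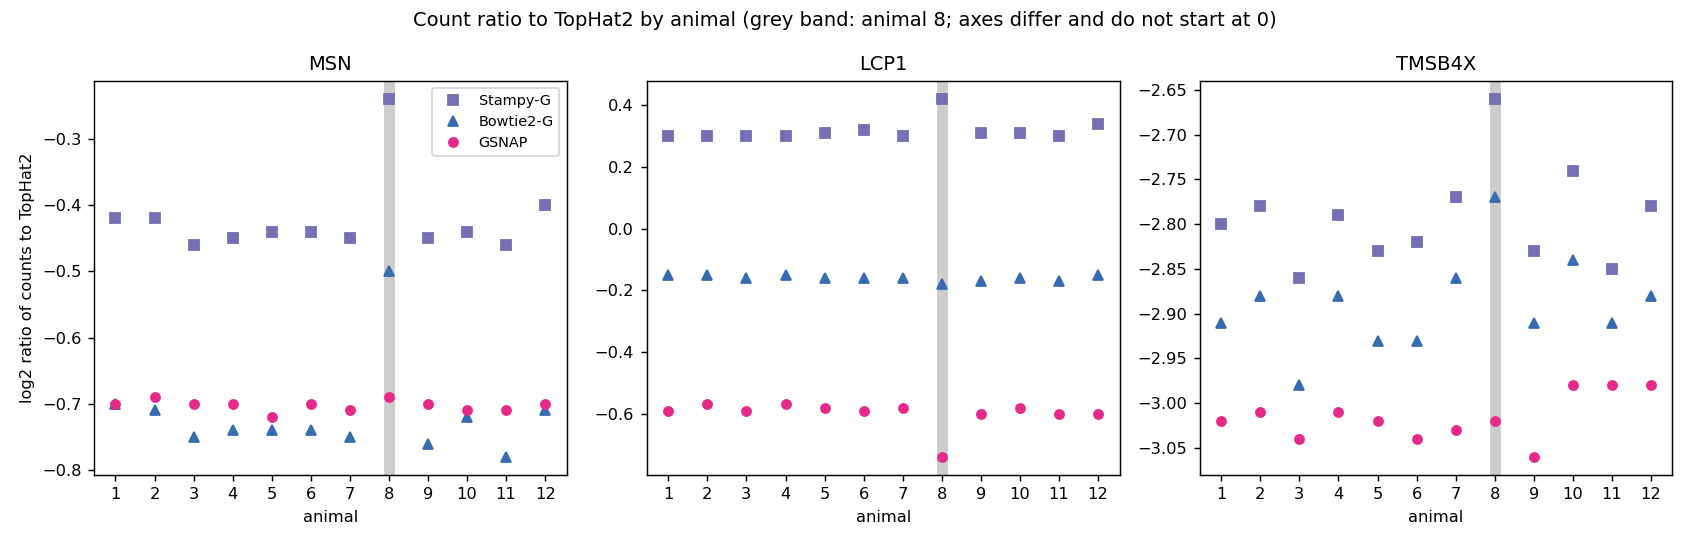
Log2 ratio of counts to TopHat2 (y axis, a different range in each panel, not from 0) by animal for MSN, LCP1 and TMSB4X with 3 genome methods. The grey band marks animal 8, where the ratio of Stampy-G is the highest of the 12 for all 3 genes, at -0.24, 0.42 and -2.66.

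Ratios of the transcriptome methods to the genome methods had another exception, in animals 1, 2 and 3. For Bowtie2 over TopHat2 the values of ACTB in these animals were 0.62 to 0.63, and those of the other 9 animals were 0.50 to 0.58. For PFN1 they were 0.21 to 0.25 against 0.10 to 0.13, for CFL1 0.11 to 0.14 against 0.01 to 0.07, and for LCP1 0.07 against -0.06 to 0.00. TMSB4X, TMSB10 and MSN did not show it. For Stampy over TopHat2 the values of ACTB were 0.68 to 0.69 against 0.56 to 0.63, and those of PFN1 and CFL1 were apart as well. ACTB, PFN1, CFL1 and LCP1 were also apart for Bowtie2 over Bowtie2-G, with 0.70 to 0.73 against 0.59 to 0.66 for ACTB, and for Stampy over Stampy-G, with 0.70 to 0.72 against 0.59 to 0.64. The median ratio of the transcripts that passed the filter on low counts in both tables, with 1 added to each count, was apart too. It was 0.03 to 0.04 against -0.02 to 0.00 for Bowtie2 over TopHat2 (9304 transcripts). For Stampy over TopHat2 it was 0.35 to 0.37 against 0.30 to 0.32 (9416 transcripts). These sets are smaller than the 11669 and 13109 transcripts tested, so their medians differ from those given above. By their numbers these are the animals that the study later left without bacteria, after this blood was drawn. The labels name no batch, the animals were noticed by these values, and no test was made.

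The level of the members differed between animals by less than the spread between the most distant methods for TMSB4X and by more for TMSB10. Levels are given within the TopHat2 table as CPM after TMM, and levels of different genes are not compared because transcript lengths were not used here. CFL1 was the steadiest member on this scale, with 2204.5, 2582.0 and 3083.8 CPM in the lowest, median and highest animal, a 1.40-fold range that widened to 1.71-fold with total counts, above the 1.54-fold of ACTB and the 1.67-fold of MSN. PFN1 followed with 2666.4, 3299.4 and 4093.4 CPM and ACTB with 12165.5, 14902.3 and 21187.6 CPM. TMSB10 varied the most, with 897.9, 1529.4 and 2230.2 CPM, a 2.48-fold range (2.73-fold with total counts). TMSB4X had 4587.8, 7299.0 and 9834.4 CPM, LCP1 2636.0, 3482.5 and 5246.2 CPM and MSN 2586.8, 3128.0 and 4674.9 CPM. The SD over animals of log2 CPM was 0.160 for CFL1, 0.188 for PFN1, 0.205 for ACTB, 0.275 for MSN, 0.308 for LCP1, 0.322 for TMSB4X and 0.391 for TMSB10. The median SD of the 1628 transcripts with a mean of at least 100 CPM was 0.282, so 4 of the 7 members varied less than that median and 3 varied more. MSN lay close to the median. In the tables of Bowtie2 and Stampy its SD was 0.289 and 0.292, beside medians of 0.286 and 0.291, and 3 members varied less.

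With TMM some animals were high for 1 member and not for another, while others lay on the same side of the mean throughout. On that scale animals 6 and 12 were above the mean for every member with counts, and animals 5 and 9 were below it. With total counts none of these animals kept to the same side. For ACTB animal 5 had 17773.4 and animal 12 had 14107.0 CPM, beside a median of 14631.0. Animal 6 had 1308.9 CPM of TMSB10 (median 1440.5), and animal 9 had 3472.4 of MSN (median 3459.8). The levels that follow are after TMM. Animal 6 had the highest level of ACTB, PFN1, LCP1 and MSN, and animal 8 that of TMSB4X, TMSB10 and CFL1. Animal 8 was below the mean for MSN (-0.21 on the log2 scale) while its TMSB10 was 0.61 above the mean. Animal 1 was 0.29 above the mean for TMSB4X and 0.40 above for TMSB10, but at -0.37 for LCP1 and for MSN. Animal 5 had the lowest level of TMSB4X, TMSB10 and LCP1, at -0.70, -0.70 and -0.43.

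These ranks depended on the scaling. With total counts in place of TMM, animal 11 was the lowest animal for 7 of 7 members in each of the 6 tables, and with TMM for 0 of 7 in 5 tables and 1 of 7 in the table of Stampy. In the TopHat2 table the 10 most counted rows took 36.1% of the counts of animal 11 and 12.3% to 18.7% of those of the other 11. The highest animal stayed the same with total counts for ACTB, TMSB4X, TMSB10 and CFL1 and changed for PFN1, LCP1 and MSN. Per read pair it stayed the same for TMSB4X and TMSB10 only, and animal 5 was the highest for ACTB, PFN1 and CFL1.

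**Figure D4:**
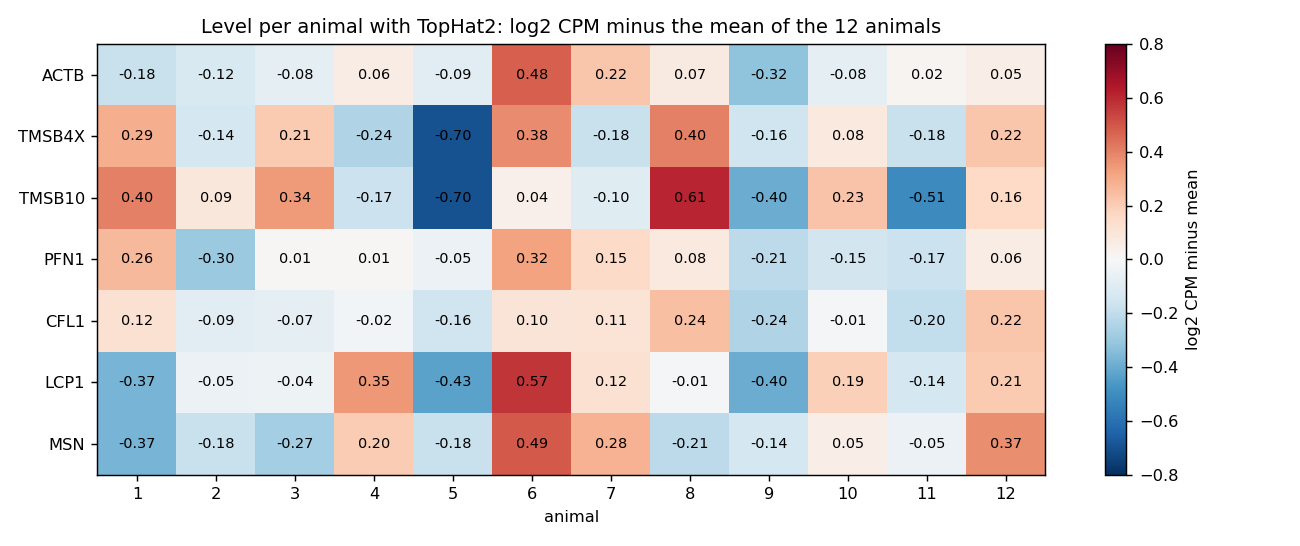
Level of 7 members (rows) in the 12 animals (columns) with TopHat2, as log2 CPM after TMM scaling minus the mean of the 12 animals, from blue (below) to red (above). TMSB4X and TMSB10 are lowest in animal 5 (-0.70 each), and ACTB, LCP1 and MSN are highest in animal 6 (0.48, 0.57 and 0.49); with total counts in place of TMM, animal 11 is lowest in every row and the highest animal of LCP1 and MSN is another.

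The order of the animals was kept by the mapping method, even where the counts were not. Spearman's rho over the 12 animals between a table and TopHat2 was 0.909 to 1 over the members and tables, and for TMSB4X, with its counts lowered 6.93-fold, it was 0.944 with Stampy-G. The lowest value was that of CFL1 with Stampy. The tables share the reads of each animal, so these are descriptions and were not tested.

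ACTB was also compared with the 1627 other transcripts of at least 100 mean CPM for likeness over the 12 animals in the TopHat2 table. The closest were NM_001183 (Pearson r = 0.874, Spearman rho = 0.874) and NM_015015 (r = 0.872, rho = 0.755), which the files give by accession only. Of the members, LCP1 was at place 42 (r = 0.799, rho = 0.790) and MSN at place 71 (r = 0.768, rho = 0.643). PFN1 had r = 0.618, CFL1 0.496, TMSB4X 0.300 and TMSB10 0.101, so the thymosin genes were the least like ACTB of the members. Much of this likeness rested on animals 6 and 9, the 2 farthest from the median of ACTB. Without them r was 0.681 for NM_001183, 0.716 for NM_015015, 0.571 for LCP1, 0.228 for PFN1, 0.344 for CFL1, -0.0524 for TMSB4X and -0.123 for TMSB10, whereas MSN kept 0.723. All transcripts of a column share its library and scaling, and no p-value is given for these values.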

How the data were processed

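The submitters' processing notes name Trimmomatic 0.25 for trimming, TopHat2 2.0.7, GSNAP and Bowtie2 2.0.6 for mapping, HTSeq 0.5.4 for counting and the build hg19. The study's methods add Stampy and counting of primary alignments per transcript in the intersection-nonempty mode. The deposited values are raw counts with no normalization. The authors marked PCR duplicates; whether the counts include them, and the strand setting, are not given in the sources used here. Where several locations fitted equally well, Bowtie2 and Stampy placed the read at a random one, so it could still be counted. Without strand, reads of an antisense partner cannot be told apart.

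The 12 columns of each table were matched to animals by number. The members and lists were chosen with earlier results of these data known. All 9 members are named, and for ACTB the most similar transcripts, of which 2 are printed. Gene symbols come from the request that defined the members. Lists of other actin genes and of cell type markers were not run, since accessions were not paired with symbols, and no sequences were used.

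Counts were tested with edgeR 4.0.16 (R 4.3.3; glmQLFit, glmQLFTest, filterByExpr) in 15 pairs of tables, with animal as a block and read pairs after quality control, as the study gives them, as library size. Calls had an adjusted p under 0.05. The pairing follows from the shared reads, and 360 of 360 column comparisons matched their own animal best. Levels are CPM with TMM. In simulated data over 11338 genes with TopHat2 means, the test called 96.9% of 96 genes changed 1.5-fold, 100% of 99 changed 2-fold and 6 of 11143 unchanged ones. Noise was drawn separately for both simulated columns of an animal, whereas the real columns hold the same reads. Changes below 1.5-fold were not simulated, so the simulation does not give the error rate of the calls on smaller differences. No 2 animals were duplicates (smallest chi-square per degree of freedom 24.3). Whether the animals' samples were handled separately is not stated. The p-values measure how even the difference within an animal was over these samples, and not the spread of levels between animals. Alternatives were TMM, total counts, DESeq2 1.42.0 with the same read pairs as library size, no filter, no block and leaving out each animal. A refit without animal 8 was added after seeing the data. Python 3.11.15 with pandas 2.3.3 and matplotlib 3.10.9 was used for summaries.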

Additional observations from a re-analysis of the deposited data

How the results depend on the processing

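The scaling and the block changed the most results. DESeq2 and no filter on low counts left all 50 tested results in the same direction and on the same side of the threshold. Both were given the same read pairs as library size, so neither of them tested the scaling. Leaving out each animal in turn reversed no mean log2 ratio that had passed the test (TMSB4X for Bowtie2 against TopHat2, which had not, ran from -0.001 to 0.001). The refit without animal 8, chosen after seeing the data, kept 49 of 50 and made 1 pass the threshold, MSN between Bowtie2-G and GSNAP. Without the replicate block, in a fit that ignores that the columns of an animal share reads, 16 of 50 lost significance. The members called with Bowtie2 against TopHat2 went from 3 higher and 2 lower to 1 and 0. Of all transcripts, the share higher went from 35.4% to 16.2% and the share lower from 28.5% to 8.43%. Members higher with Stampy than with TopHat2 went from 7 to 3, and the share of all transcripts from 81% to 52%. With TMM 18 and with total counts 15 of the 50 results reversed in sign, whether or not the new difference passed the test. Total counts scale each column to its own counted total, and TMM further adjusts these totals by a trimmed mean of log ratios.

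Against TopHat2, members called higher with Stampy went from 7 to 1 with TMM and 2 with total counts, and lower from 0 to 5 and 4. With GSNAP the higher calls went from 0 to 6 and 5 and the lower from 7 to 1 under both. With Bowtie2-G 2 became higher under both, and with Bowtie2 4 were lower with TMM. The shares of all transcripts moved as well. With total counts 53.4% were higher and 30.1% lower with Stampy, 40.9% and 42.1% with GSNAP, and 44.3% and 34.6% with Bowtie2-G. The shares with TMM are given in the Results. On the transcriptome against the genome, 1 member became lower under both scalings for Bowtie2, and 2 with TMM and 1 with total counts for Stampy. Of all transcripts, total counts gave 37.4% higher and 43.5% lower for Bowtie2, and 44.3% and 32.6% for Stampy. The reversed log2 differences are given next, with TMM first and total counts second. For Stampy minus TopHat2 they were -0.454 and -0.275 for TMSB4X, -0.453 and -0.274 for TMSB10, -0.281 and -0.102 for PFN1, -0.185 and -0.007 for CFL1, -0.231 and -0.052 for MSN, and -0.029 with TMM alone for LCP1. Of these, CFL1 with total counts (edgeR adjusted p = 0.533) and LCP1 with TMM (edgeR adjusted p = 0.0585) did not pass the test. For GSNAP minus TopHat2 they were 0.548 and 0.522 for ACTB, 0.277 and 0.251 for TMSB10, 0.340 and 0.314 for PFN1, 0.180 and 0.155 for CFL1, 0.145 and 0.119 for LCP1, and 0.040 and 0.014 for MSN. With total counts only 5 of these GSNAP differences passed the test, and that of MSN was the smallest. For Bowtie2-G minus TopHat2 they were 0.211 and 0.184 for ACTB and 0.142 and 0.116 for LCP1. LCP1 was -0.033 for Bowtie2 minus TopHat2 with TMM. For Bowtie2 minus Bowtie2-G it was -0.162 and -0.109. For Stampy minus Stampy-G it was -0.163 and -0.041, and TMSB10 was -0.027 with TMM.

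The counts of the 7 members were at least 8732 in every column, so depth did not limit them. For the 1 row each of ACTG1 and CORO1A, the zeros allow up to 0.159 to 0.414 CPM, for counting error only. They set no limit on the level of these genes, as other rows were not used and reads left unassigned were not tested.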
